A study of Homo sapiens with 9 samples.

Results

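The BCL2 family was followed at the transcript level in the MDA-MB-231 line under 2-deoxy-glucose (2-DG). The genes described are 10 of the 61552 genes listed in the data, taken by name: the anti-apoptotic genes BCL2, BCL2L1 (which encodes BCL-XL) and MCL1, the effector genes BAX and BAK1, and the BH3-only genes BID, BIK, BBC3 (PUMA), PMAIP1 (NOXA) and BCL2L11 (BIM). MDA-MB-231 is an established human triple-negative breast cancer (TNBC) cell line, labelled wild type in genotype, and 2-DG is a glucose analogue that enters cells like glucose and blocks glycolysis. Cells received 0 mM 2-DG (phosphate-buffered saline, the control), 10 mM 2-DG or 20 mM 2-DG for 24 h, and 3 RNA-seq libraries were made per dose. The labels do not say whether the 3 libraries of a dose came from separate cultures, so p-values measure only the spread between these libraries, which may be technical.

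Proteins of the BCL2 family decide whether the outer membrane of the mitochondrion is opened, the step at which cytochrome c leaves and caspases are switched on. BAX and BAK1 form the pores, BCL2, BCL-XL and MCL1 hold them in check, and the BH3-only proteins either block the anti-apoptotic proteins or act on the effectors directly. Much of the control over these proteins is exerted after transcription, on binding, cleavage, phosphorylation and turnover, which RNA-seq does not measure.

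Values are FPKM, reads scaled by the length of the gene and by the total of the library, so that levels can be compared between libraries and, as far as the gene lengths used hold, between genes. The lengths that the values imply are those of another annotation than GENCODE 29 for 8 of the 10 members, with 6222 against 4371 bases for MCL1 and 4197 against 3314 for BCL2L1. Ratios of FPKM between doses do not depend on these lengths. The read filter does, as do the differences on log2(FPKM + 1) through the added 1. The library totals behind the values ranged from 30974968 to 40843638 reads per library. Differences between doses were tested with limma on log2(FPKM + 1) over all 16569 genes that passed a filter on low reads, and a gene was called at a Benjamini-Hochberg adjusted p under 0.05. All 10 members passed that filter. Because 1 is added before the log, differences of low transcripts come out too small, and the ratio of the mean FPKM is given beside some fitted differences. Of the usual markers of the cell line, 6 of 6 mesenchymal and basal genes lay above 1 FPKM in every library. The luminal receptors ESR1 and PGR reached at most 0.0083 and 0.020 FPKM, and FOXA1 and CDH1 also stayed under 1 FPKM. The luminal markers ERBB2, EPCAM and GATA3 lay above 1 FPKM in every library, with lowest values of 5.53, 2.61 and 1.17 FPKM. Replicates 1 and 2 at 10 mM were the least alike of the pairs of libraries within a dose (Pearson's r = 0.989 on log2(FPKM + 1)), and each was closer to all 3 libraries at 20 mM (0.993 to 0.995). Both doses were compared with the same 3 control libraries and their results are therefore not independent.

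Of the 10 members, 2 rose and 1 fell at 10 mM 2-DG, and 1 rose and 2 fell at 20 mM 2-DG. MCL1 rose at both doses, to 1.22 and 1.20 times the control. BID fell at both doses, to 0.751 and 0.655 times the control. PMAIP1 passed the test at 10 mM and BIK at 20 mM. In bulk RNA, fewer cells with a transcript and less of it per cell cannot be told apart. Over all genes tested, 29.7% were called at 10 mM (12.1% higher and 17.5% lower) and 37.0% at 20 mM (15.4% higher and 21.6% lower), so 3 of 10 members at each dose is close to the share of genes in general. The study's methods set other thresholds, a log2 fold change over 1 in size and p under 0.05, which is taken here before adjustment. By these 0 of 10 members passed on log2(FPKM + 1) at 10 mM, 20 mM or between the doses, against 1.74%, 2.92% and 0.00604% of all genes. With limma-voom on the recovered reads, a fit without that pseudocount, BIK passed at 20 mM (log2 difference −1.27) and 0 of 10 at 10 mM or between the doses, against 12.8%, 9.57% and 1.04% of all genes. The median log2 fold change of the 10 members was −0.04 at 10 mM and −0.05 at 20 mM, and that of all genes −0.01 and −0.02.

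**Figure D1:**
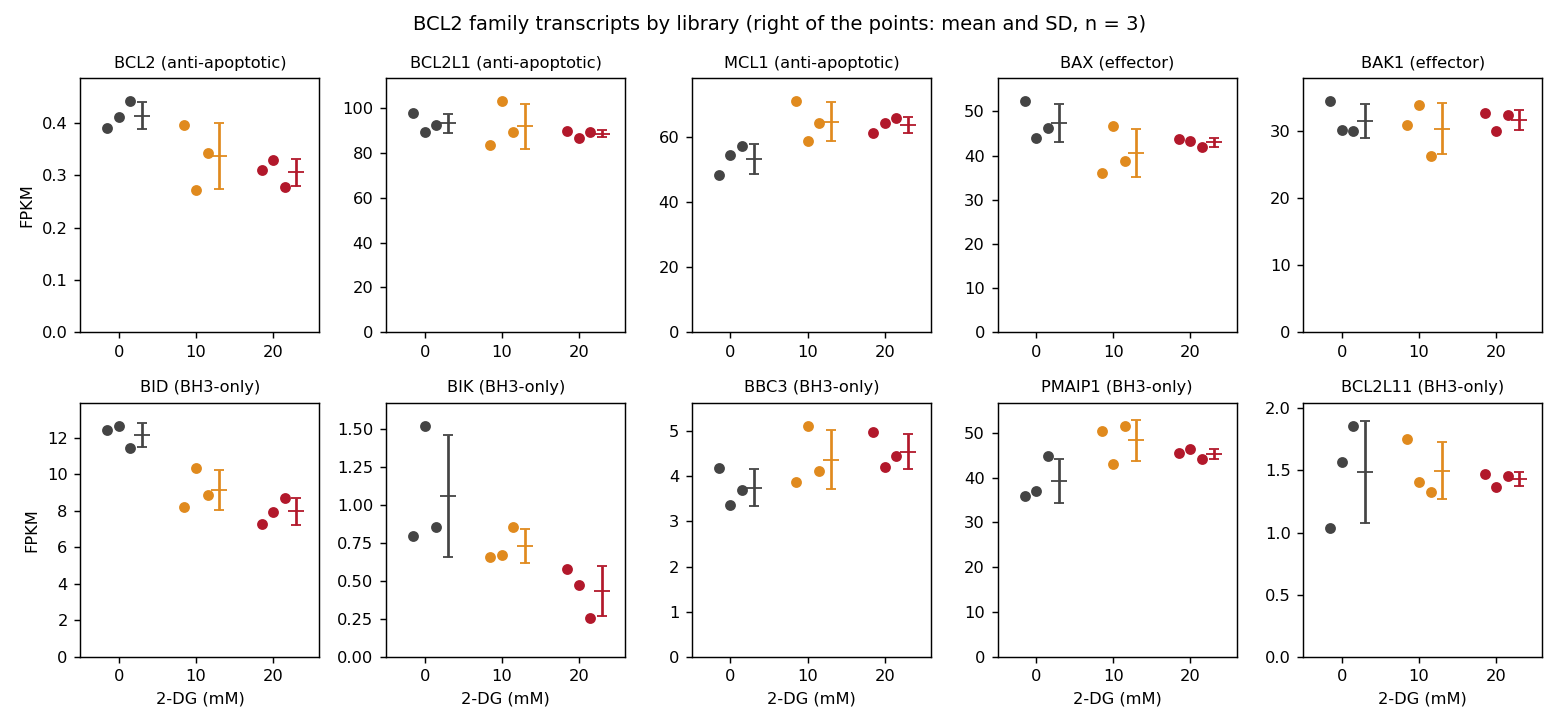
FPKM (y axis, from 0, a scale of its own for each gene) of the 10 BCL2 family genes by dose of 2-DG in mM (x axis). Each point is a library and the bar to the right of the points gives the mean and SD of 3 libraries. The 3 control libraries of BID (11.4 to 12.6 FPKM) lie above all 6 treated libraries (7.26 to 10.4 FPKM), and the 3 control libraries of MCL1 (48.2 to 57.1 FPKM) lie below all 6 (58.9 to 70.8 FPKM).

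The DNA before an annotated start of PMAIP1 and of BID is printed, for a BH3-only gene that was called higher and for one that was called lower. RefSeq promoter windows on GRCh38.p14, 250 bases before an annotated start, were matched for 8 of the 10 members, and bases that lie in an annotated exon of the gene were left off. PMAIP1 lies on the plus strand of chromosome 18 (chr18:59899948-59904306), and 202 bases before it are shown (chr18:59899746-59899947). BID lies on the minus strand of chromosome 22 (chr22:17734138-17774770). RefSeq gives it 5 windows, and the one free of exon bases is shown in the direction of transcription (chr22:17774043-17774292). It lies before an alternative start, inside the span of the gene given above. Capitals mark every match, on either strand, to any of 5 motifs: TGATGNAA, the element of ATF4 and CHOP; TGACG, the core of the cyclic AMP response element; CACGTG, the E-box of MYC; GGGCGG, the GC box of SP1; and CCAAT, the CCAAT box of NF-Y.
PMAIP1: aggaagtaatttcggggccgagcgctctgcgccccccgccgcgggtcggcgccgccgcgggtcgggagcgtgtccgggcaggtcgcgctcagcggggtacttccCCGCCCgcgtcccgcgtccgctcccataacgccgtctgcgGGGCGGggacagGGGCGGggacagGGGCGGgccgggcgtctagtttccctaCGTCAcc
BID: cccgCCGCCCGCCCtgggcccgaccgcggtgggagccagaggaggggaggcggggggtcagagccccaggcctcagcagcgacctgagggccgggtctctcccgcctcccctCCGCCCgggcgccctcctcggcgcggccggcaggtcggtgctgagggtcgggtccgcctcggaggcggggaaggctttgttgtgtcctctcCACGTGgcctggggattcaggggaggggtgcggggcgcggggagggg

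The motifs were counted in the whole windows, exon bases included. A member is named where any of its windows, up to 5, held the motif, while the shares of all promoters are per window. The PMAIP1 sequence held 4 GC boxes and 1 TGACG core, read on the minus strand. The BID sequence held 3 GC boxes, 2 of which share 2 bases, and 1 E-box. TGATGNAA was found in 0 of the 8 members with a window and in 3.14% of the 35116 promoters of the same length. TGACG was found in BAX, BCL2 (whose window lies wholly in exons), BCL2L1 and PMAIP1 (21.2% of all promoters), CACGTG in BAX, BBC3 and BID (6.34%), GGGCGG in BAK1, BAX, BCL2L11, BID and PMAIP1 (42.6%) and CCAAT in BAK1, BAX, BBC3 and BCL2L11 (32%). A match says only that the letters occur in this window. The printed BID window was 78.0% G or C, the highest of the 5 BID windows, against a median of 58.0% over all promoters. The BID window that reaches before the annotated span of the gene was the lowest, at 47.6%.

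MCL1, a short-lived protein that restrains BAK1 and is removed within hours when its synthesis stops, is encoded on chromosome 1 (chr1:150574551-150579738, minus strand, GRCh38). Its transcript was measured at 48.2, 54.3 and 57.1 FPKM in the control libraries, at 70.8, 58.9 and 64.4 FPKM at 10 mM and at 61.0, 64.1 and 65.7 FPKM at 20 mM 2-DG. All 6 treated libraries lay above all 3 control libraries, by a margin of less than the spread among the controls. The means were 53.2 ± 4.56, 64.7 ± 6.0 and 63.6 ± 2.35 FPKM (SD, n = 3). The fitted log2 difference was 0.28 (SE 0.0820, limma adjusted p = 0.0296) at 10 mM and 0.26 (SE 0.0820, limma adjusted p = 0.0338) at 20 mM. The call at 10 mM was lost without control replicate 1 or 2 or without 10 mM replicate 1 or 3, and the call at 20 mM without control replicate 1 or 2 or without any of the 3 libraries of that dose, with adjusted p up to 0.0994 and 0.113. Between the doses MCL1 differed by −0.02 (adjusted p = 0.995).

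BCL2L1, the gene of BCL-XL, lies on chromosome 20 (chr20:31664452-31723989, minus strand). It was the highest of the 10 transcripts at every dose, with 97.8, 89.3 and 92.5 FPKM in the control, 83.3, 102.9 and 89.5 FPKM at 10 mM and 89.6, 86.8 and 89.4 FPKM at 20 mM. The groups overlapped. The fitted difference was −0.02 at 10 mM (adjusted p = 0.844) and −0.07 at 20 mM (adjusted p = 0.505), with a 95% confidence interval at 20 mM from −0.24 to 0.10. Its exons share 1424 bases with the antisense gene ABALON, which reached at most 0.158 FPKM.

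BCL2, the founding member, on chromosome 18 (chr18:63123346-63320128, minus strand), was the lowest of the 10 at every dose. It was measured at 0.391, 0.411 and 0.442 FPKM in the control, at 0.397, 0.272 and 0.344 FPKM at 10 mM and at 0.310, 0.329 and 0.278 FPKM at 20 mM, values that rest on 116 to 191 reads per library. At 20 mM all 3 libraries lay below the controls, at 0.737 times the control mean, and at 10 mM 1 library lay among the controls. The difference did not pass the test at 10 mM (−0.08, adjusted p = 0.246) or at 20 mM (−0.12, adjusted p = 0.0934). Libraries of the control and of 20 mM did not overlap for 6 of the 10 members (BCL2, MCL1, BAX, BID, BIK and BBC3), and this was so for 53.3% of all genes tested. At 10 mM 2 members (MCL1 and BID) and 40.5% of all genes did not overlap with the control.

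The effector BAX, which moves from the cytosol to the mitochondrion and opens its outer membrane, lies on chromosome 19 (chr19:48954815-48961798, plus strand). It was measured at 52.3, 43.9 and 46.2 FPKM in the control, at 36.1, 46.6 and 38.8 FPKM at 10 mM and at 43.9, 43.4 and 41.9 FPKM at 20 mM. The highest 20 mM library lay just below the lowest control library, and the 10 mM libraries were spread on both sides of the lowest control library. The difference from the control was −0.23 at 10 mM (SE 0.0945, adjusted p = 0.10) and −0.13 at 20 mM (SE 0.0945, adjusted p = 0.303). Without 10 mM replicate 2, the highest of that dose, BAX was called lower at 10 mM (−0.33, adjusted p = 0.0112, against 0.0112 to 0.285 over all alternatives).

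BAK1, the effector that sits in the mitochondrial membrane, lies on chromosome 6 (chr6:33572547-33580293, minus strand). Its levels were 34.4, 30.1 and 29.9 FPKM in the control, 30.9, 33.9 and 26.3 FPKM at 10 mM and 32.7, 29.9 and 32.3 FPKM at 20 mM. The 3 groups overlapped. The differences were −0.06 at 10 mM (adjusted p = 0.693) and 0.01 at 20 mM (adjusted p = 0.948, 95% confidence interval from −0.20 to 0.22). The ratio of BAX to BAK1 FPKM was 1.51 ± 0.0450 in the control and then 1.34 ± 0.157 (10 mM) and 1.36 ± 0.0775 (20 mM; SD, n = 3). BAK1 has the processed pseudogenes BAK1P1 and BAK1P2, and reads shared between these copies could be assigned to any of them.

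BID, the BH3-only protein that caspase-8 cleaves and that carries a death receptor signal to the mitochondrion, was called lower at both doses. The control libraries gave 12.4, 12.6 and 11.4 FPKM, the 10 mM libraries 8.19, 10.4 and 8.87 FPKM and the 20 mM libraries 7.26, 7.95 and 8.70 FPKM. All treated libraries lay below all controls, while the libraries of the 2 doses overlapped. BID fell by 0.38 on the log2 scale at 10 mM (SE 0.0931, limma adjusted p = 0.0124) and fell by 0.56 at 20 mM (SE 0.0931, limma adjusted p = 0.00128). The mean fell by 34.5%, from 12.2 ± 0.654 FPKM in the control to 7.97 ± 0.722 FPKM at 20 mM (SD, n = 3), and 12.1% of all genes tested had a difference as large in size. BID was called at an adjusted p under 0.05 in 17 of 17 alternative fits at each dose, and did not pass the study's thresholds at either. The fitted difference between 20 mM and 10 mM was −0.17 (adjusted p = 0.808).

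BIK, a BH3-only protein of the endoplasmic reticulum, on the plus strand of chromosome 22 (chr22:43110748-43129712), was near the limit of what could be measured. It was listed at 0.799, 1.52 and 0.858 FPKM in the control (27, 53 and 28 reads), at 0.658, 0.669 and 0.857 FPKM at 10 mM (22, 26 and 28 reads) and at 0.577, 0.476 and 0.254 FPKM at 20 mM (17, 18 and 8 reads). The 20 mM libraries lay below all others, and control replicate 2 stood above the rest. BIK fell by 0.51 at 20 mM on the log2(FPKM + 1) scale (SE 0.133, limma adjusted p = 0.0136) and differed by −0.24 at 10 mM (adjusted p = 0.212), or by −0.08 without control replicate 2 (adjusted p = 0.604). Summed over the libraries, 43 reads at 20 mM stood against 108 in the control, a log2 ratio of −1.29 with a 95% counting interval from −1.84 to −0.77 that covers counting error only. Without 20 mM replicate 3 the call was lost (−0.42, adjusted p = 0.0553, against 0.0122 to 0.0650 over all alternatives). BIK was the single member whose libraries did not overlap between 20 mM and 10 mM, as held for 11.9% of all genes, and the fitted difference was −0.27 (adjusted p = 0.769).

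PMAIP1, the gene of NOXA, a partner of MCL1 that promotes its breakdown, was measured at 35.8, 37.1 and 44.8 FPKM in the control, at 50.5, 43.0 and 51.5 FPKM at 10 mM and at 45.4, 46.3 and 44.1 FPKM at 20 mM. Control replicate 3 lay among the treated libraries at both doses, and the other controls lay below all of them. PMAIP1 rose at 10 mM (log2 difference 0.30, SE 0.0929, limma adjusted p = 0.0369), to 1.23 times the control mean, and at 20 mM its level was 1.15 times the control mean (log2 difference 0.21, adjusted p = 0.107). The call at 10 mM was lost when control replicate 1 or 2, 10 mM replicate 1 or 3 or any 20 mM library was left out, with adjusted p up to 0.121. At 20 mM PMAIP1 was called higher without control replicate 3 (0.31, adjusted p = 0.0213, against 0.0213 to 0.293 over all alternatives). A difference between the doses was not detected (−0.09, adjusted p = 0.952). The ratio of MCL1 to PMAIP1 FPKM was 1.36 ± 0.0958 in control libraries, 1.34 ± 0.0798 at 10 mM and 1.41 ± 0.0742 at 20 mM (SD, n = 3).

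BBC3, the gene of PUMA, which binds all the anti-apoptotic proteins, lies on chromosome 19 (chr19:47220822-47232766, minus strand). It was measured at 4.18, 3.37 and 3.69 FPKM in the control, at 3.88, 5.11 and 4.11 FPKM at 10 mM and at 4.98, 4.21 and 4.44 FPKM at 20 mM. The 20 mM libraries lay above the controls, the lowest of them by a small margin, and the 10 mM libraries overlapped with the controls. The differences of 0.17 (adjusted p = 0.264) and 0.23 (adjusted p = 0.135) did not pass the test, and the first was 0.08 without 10 mM replicate 2 (adjusted p = 0.615). The microRNA genes MIR3190 and MIR3191 lie in BBC3 exons.

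BCL2L11, the gene of BIM, lies on the plus strand of chromosome 2 (chr2:111119378-111168447). It varied most in the control, with 1.04, 1.57 and 1.86 FPKM, against 1.76, 1.41 and 1.33 FPKM at 10 mM and 1.47, 1.37 and 1.45 FPKM at 20 mM. The treated libraries all lay within the range of the controls. The difference was 0.02 at 10 mM (adjusted p = 0.939) and −0.02 at 20 mM (adjusted p = 0.921, 95% confidence interval from −0.30 to 0.26). Its exons share 727 bases with MIR4435-2HG on the opposite strand, whose mean was 1.37 FPKM in the control and 1.66 and 1.62 FPKM at the 2 doses. Whether the counting used the strand is not given in the sources used here, so reads of such overlapping genes may not be told apart.

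**Figure D2:**
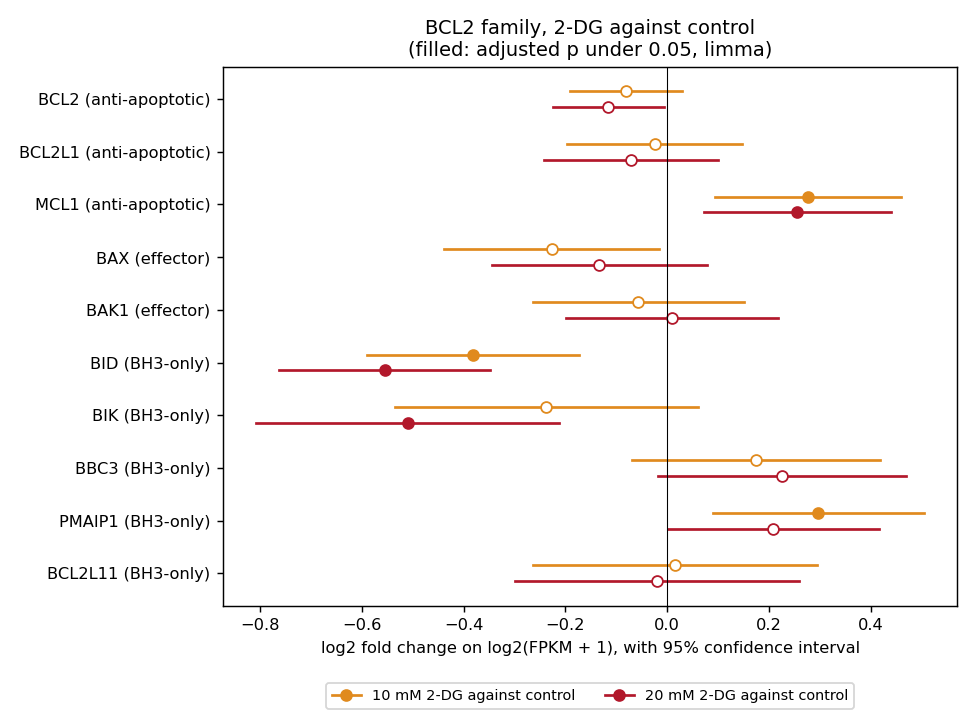
Fitted log2 fold change on log2(FPKM + 1) against the control (x axis) with its 95% confidence interval for the 10 genes (y axis) at 10 mM (orange) and 20 mM 2-DG (red). Filled points have an adjusted p under 0.05: MCL1 lies right of 0 at both doses (0.28 and 0.26), PMAIP1 at 10 mM (0.30), and BID (−0.38 and −0.56) and BIK at 20 mM (−0.51) lie left of 0.

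Between 20 mM and 10 mM 2-DG, 0 of the 10 members were called, and 0 of them reached p under 0.05 before adjustment. Over all genes 0.00% were called in this comparison by limma on log2(FPKM + 1) and by limma-voom on the recovered reads. Before adjustment, p was under 0.05 for 1140 genes (6.88%) by the former and for 1031 genes (6.22%) by the latter. The fitted differences of the members ran from −0.27 for BIK to 0.09 for BAX.

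The order of the 10 transcripts by mean FPKM in the control was BCL2L1, MCL1, BAX, PMAIP1, BAK1, BID, BBC3, BCL2L11, BIK and BCL2. Neighbours in that order whose libraries overlapped were MCL1 and BAX, BAX and PMAIP1, and BCL2L11 and BIK. At 10 mM and 20 mM PMAIP1 stood above BAX, with overlapping libraries at 10 mM and none at 20 mM, and the order was otherwise that of the control. BIK and BCL2 overlapped at 20 mM. The mean BCL2L1 level was 1.76 ± 0.230 times that of MCL1 in control libraries, 1.44 ± 0.289 times at 10 mM and 1.39 ± 0.0640 times at 20 mM (mean ratio and SD, n = 3). With GENCODE 29 exon lengths the order of the means was the same at each dose, and the ratio of BCL2L1 to MCL1 was 1.57 ± 0.205, 1.28 ± 0.258 and 1.24 ± 0.0570. Which neighbours overlap was not recomputed with those lengths.

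Summed by role, the anti-apoptotic genes made up 51.8 ± 0.790% of the FPKM of the 10 genes in control libraries, 53.8 ± 0.278% at 10 mM and 53.2 ± 0.638% at 20 mM (SD, n = 3). The effectors made up 27.8 ± 2.03%, 24.2 ± 2.04% and 26.0 ± 0.533%, and the BH3-only genes 20.4 ± 1.40%, 22.0 ± 1.77% and 20.8 ± 0.365%. The shares are sums dominated by BCL2L1, MCL1, BAX, BAK1 and PMAIP1 and describe RNA only. BID and BIK contributed little to them. With GENCODE 29 exon lengths (a choice added after seeing the data) the anti-apoptotic share was 58.9 ± 0.854% in control libraries, 61.0 ± 0.415% at 10 mM and 60.4 ± 0.638% at 20 mM.

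**Figure D3:**
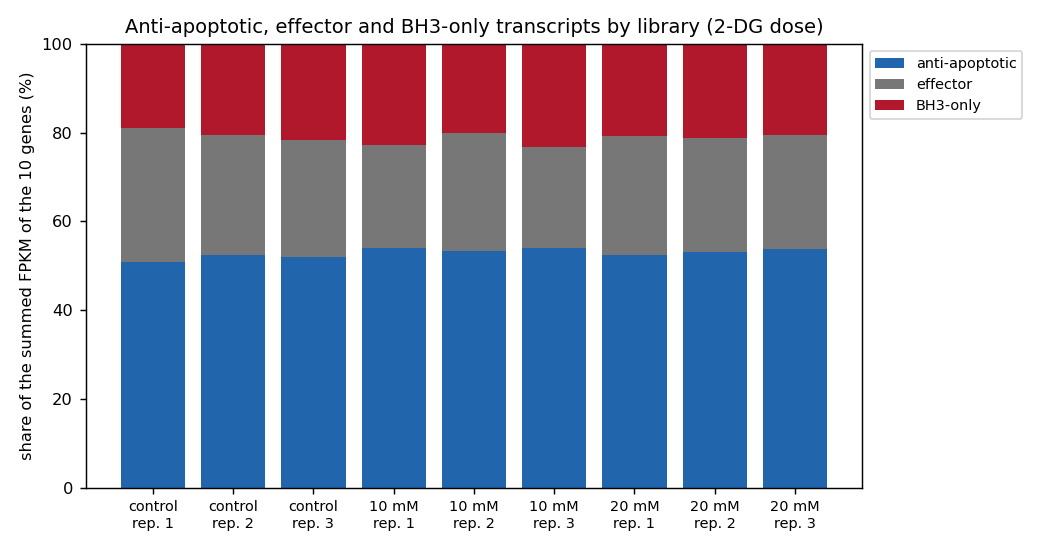
Share (%) of the summed FPKM of the 10 genes held by anti-apoptotic (blue), effector (grey) and BH3-only genes (red) in each of the 9 libraries, in the order control, 10 mM and 20 mM 2-DG. The anti-apoptotic share averaged 51.8% over control libraries, 53.8% at 10 mM and 53.2% at 20 mM.

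Of 13 other genes of the BCL2 family, 9 passed the filter. BCL2L10, HRK, BCL2L14 and BCL2L15 had 3, 2, 9 and 22 reads over all 9 libraries and were not tested. At 20 mM 1 of the 9 rose and 3 fell, and at 10 mM 0 rose and 1 fell. Among all genes tested, 15.4% rose and 21.6% fell at 20 mM, and 12.1% rose and 17.5% fell at 10 mM. The counts of this and the following lists are to be read beside these shares. BCL2L2, the gene of the anti-apoptotic BCL-W, rose at 20 mM (log2 difference 0.30, limma adjusted p = 0.0296), from 8.93 ± 0.859 to 11.2 ± 0.181 FPKM. BCL2A1, an anti-apoptotic gene induced by NF-kB, fell at both doses, from 1.40 ± 0.434 FPKM to 0.312 ± 0.242 at 10 mM (−0.87, adjusted p = 0.00169) and 0.553 ± 0.0651 at 20 mM (−0.61, adjusted p = 0.00824). These BCL2A1 values rest on few reads, 40 to 67 per control library, 5 to 20 at 10 mM and 16 to 22 at 20 mM. The BH3-only gene BAD (−0.37, adjusted p = 0.0347) and BCL2L12 (−0.36, adjusted p = 0.0394) fell at 20 mM. The median log2 fold change of the 9 was −0.20 at 20 mM and −0.15 at 10 mM, against −0.02 and −0.01 over all genes.

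Downstream of the mitochondrion, 1 of 13 genes of the apoptosome and caspases rose and 2 fell at 20 mM, and 0 rose and 1 fell at 10 mM. The shares of all genes called were 37.0% at 20 mM and 29.7% at 10 mM. APAF1, the scaffold of the apoptosome, fell at 20 mM (−0.60, adjusted p = 0.0206), as did the effector caspase gene CASP6 (−0.36, adjusted p = 0.00579), and HTRA2, a mitochondrial protease, rose (0.21, adjusted p = 0.0288). Of 6 genes of the inhibitor of apoptosis (IAP) family, BIRC5 and BIRC3 fell at both doses and 4 were not called. BIRC5, or survivin, which also serves in cell division and is made by cycling cells, went from 31.9 ± 2.59 FPKM to 8.07 ± 0.544 at 20 mM (−1.86, adjusted p = 5.83e-07), and BIRC3, an NF-kB target, from 9.92 ± 1.79 to 4.64 ± 0.393 FPKM (−0.94, adjusted p = 0.000297).

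A list of 10 genes held transcription factors that can act on BH3-only genes, together with TRIB3, a pseudokinase, and CHAC1, an enzyme that breaks down glutathione, both targets of ATF4 and CHOP and not regulators of these genes. Of the 10, 5 rose and 2 fell at 10 mM, and 6 rose and 2 fell at 20 mM, while 29.7% and 37.0% of all genes were called. Their median log2 fold change was 0.36 and 0.46, against −0.01 and −0.02 over all genes. The list was chosen with earlier results of these data known and counts TRIB3 and CHAC1, so this median describes the list only. TRIB3 and CHAC1 were among those that rose at both doses. TRIB3 rose from 29.7 ± 3.88 to 93.9 ± 6.05 FPKM at 10 mM and 114.1 ± 3.21 at 20 mM (1.92 at 20 mM, adjusted p = 5.08e-07). DDIT3, the gene of the stress factor CHOP, rose from 27.2 ± 3.09 to 64.1 ± 11.3 and 77.1 ± 2.37 FPKM (1.47, adjusted p = 1.22e-05). ATF4, CHAC1, ATF3 and FOXO3 were also called higher at 20 mM, with log2 differences of 0.65, 1.47, 0.47 and 0.44. These are genes of the integrated stress response and, for FOXO3, of the response to low growth factor signalling. E2F1, which drives entry into S phase and activates BH3-only genes, fell at 20 mM (−1.24, adjusted p = 1.73e-06), as did TP73 (−0.30, adjusted p = 0.00800), from 0.349 ± 0.151 to 0.0904 ± 0.0174 FPKM.

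Among 8 genes that act on the stability of the MCL1 protein, 1 rose and 1 fell at 10 mM, and 2 rose and 1 fell at 20 mM. For this list and the next, the shares of all genes called were 29.7% at 10 mM and 37.0% at 20 mM. GSK3B, a kinase that marks MCL1 for breakdown, rose at 20 mM (0.41, adjusted p = 0.00704), as did BTRC, of the ubiquitin ligase that follows it (0.25, adjusted p = 0.0452). USP13, a deubiquitinase, fell from 1.25 ± 0.0436 to 0.456 ± 0.0763 FPKM (−0.63, adjusted p = 5.04e-05). Of 8 genes at the contact of mitochondria and endoplasmic reticulum, TMBIM6, a BAX inhibitor, rose at both doses (0.43 at 20 mM, adjusted p = 0.000175) and the channel gene VDAC3 fell at both (−0.33 at 20 mM, adjusted p = 0.00574). At 20 mM against 10 mM 0 genes of any of these lists were called.

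**Figure D4:**
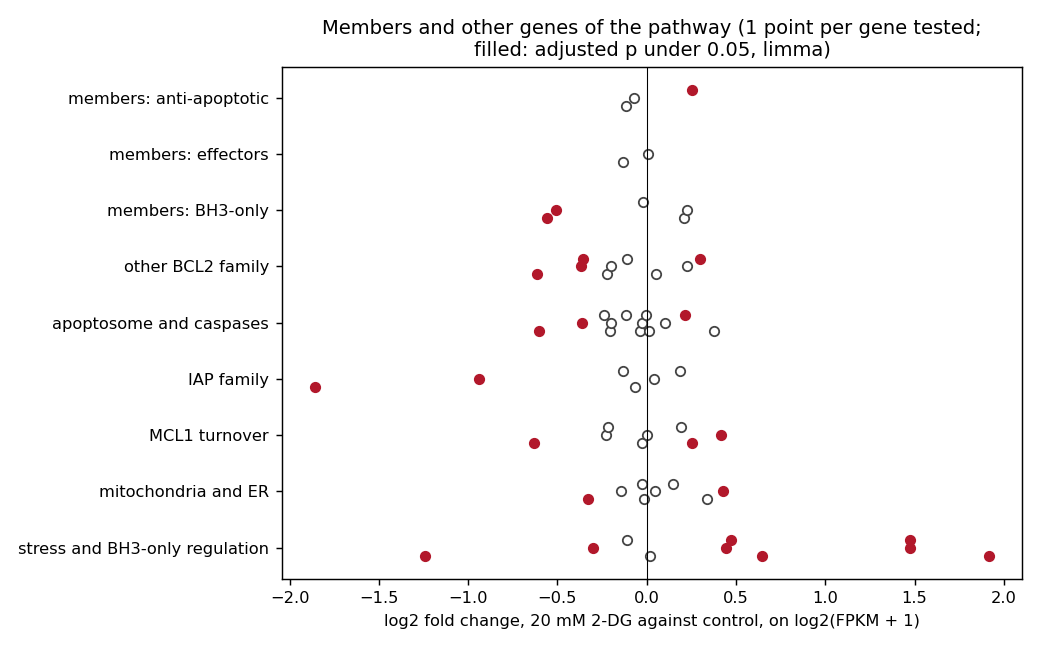
Fitted log2 fold change at 20 mM 2-DG against control (x axis) of each gene tested, by gene list (y axis), with the 10 members in the upper rows; red filled points have an adjusted p under 0.05. The members lie between −0.56 (BID) and 0.26 (MCL1), BIRC5 (−1.86) lies farthest to the left and TRIB3 (1.92) farthest to the right.

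Other readings moved with dose beside these results. Summed FPKM of the 6 cell line markers was 1699 to 1935 over control libraries, 1282 to 1610 at 10 mM and 1360 to 1405 at 20 mM. At each dose 4 of the 6 fell, against 17.5% of all genes at 10 mM and 21.6% at 20 mM. Summed luminal markers were at 14.3 to 16.3, 9.97 to 11.5 and 9.64 to 10.2 FPKM, with 4 of 7 under 1 FPKM in all libraries. Summed immune markers were at 2.58 to 4.10, 1.75 to 2.83 and 1.17 to 1.86 FPKM, with MS4A1 at 0 and 5 of 6 under 1 FPKM in all libraries. Most of this sum was the single gene CD14, with means of 3.05, 2.12 and 1.47 FPKM. Summed endothelial and stromal markers were at 3.17 to 3.59, 2.33 to 2.65 and 2.09 to 2.41 FPKM. Their part in the differences of BID, BIK, MCL1 and PMAIP1 was not tested.

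The genes whose log2(FPKM + 1) followed BID most closely over the 9 libraries were TMEM132A (Pearson's r = 0.990), SLC43A3 (0.989), SUOX (0.986), ITGB2 (0.984) and RIBC2 (0.979). For BIK they were MR1 (0.937), CX3CL1 (0.936), PEX3 (0.929), KBTBD11 (0.926) and SLC25A14 (0.917). The 9 libraries fall into 3 doses and the genes were picked as the highest of all, so these values are a description.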

How the data were processed

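Total RNA was extracted with a Qiagen kit, made into mRNA-Seq libraries and sequenced on an Illumina instrument. The authors deposited FPKM values, 1 file per library, and their processing notes name the build GRCh38 (hg38); the aligner, counter and annotation release are not given in the sources used here. Cells given lactate were not analysed here.

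The members, lists and tests were chosen with earlier results of these data known. Groups were taken from the sample titles. Whole reads and library totals (30974968 to 40843638) were recovered from the FPKM steps. GENCODE 29 exon lengths gave the totals, and a length that made all values whole was then searched per gene and found for 32804 of 32806 genes above 0, the annotated length in 16144 of them. Genes with at least 10 reads in 3 libraries and 15 in all (16569) were tested with limma 3.58.1 in R 4.3.3 on log2(FPKM + 1), with a variance trend, all 9 libraries and no block, two-sided. On simulated data for 20 mM against control, over 16569 genes, limma-trend recovered 98% of 200 changed genes and called 11 unchanged ones. The simulated log2 changes were larger than any difference of the members in the main fit and were set only in well-read genes. This share therefore does not tell how often differences of the members' size are found. Pairs of replicates correlated at 0.989 to 0.996 and differed beyond sampling noise. Pseudocounts, filters, scalings, limma-voom, the groups fitted, a block, thresholds and left-out libraries were the alternatives.

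Named genes were the 10 members; per list, the called genes at 20 mM with the 2 largest differences in each direction (others are named to complete a small count or after their values were seen); the 5 protein-coding genes most correlated with each of the 2 members of largest difference; and cell line markers. Positions come from GENCODE 29, promoters from RefSeq (GRCh38.p14). Some genes of the lists and 1 list are not reported here.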

Additional observations from a re-analysis of the deposited data

How the results depend on the processing

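By adjusted p under 0.05, the call of BID held in 17 of 17 alternative fits at each dose, 9 of them with 1 library left out. Its log2 differences ran from −0.47 to −0.31 at 10 mM and from −0.61 to −0.47 at 20 mM. BID did not pass the study's thresholds at either dose, on log2(FPKM + 1) or with limma-voom. MCL1 was called in 10 of 17 at each dose, PMAIP1 in 8 of 17 at 10 mM and in 3 of 17 at 20 mM, and BIK in 14 of 16 at 20 mM (−1.27 with limma-voom). The number of members called higher at 10 mM, 2 as reported, was 0 with all genes above 0 in any library, 0 with only the 2 groups compared and 0 at the study's thresholds, on log2(FPKM + 1) or with limma-voom (the latter chosen after the data were seen); with 1 library left out it was 0 to 2. The number called lower at 10 mM, 1 as reported, was 0 at the study's thresholds by either fit and 1 to 2 with 1 library left out. At 20 mM the number called higher, 1 as reported, was 0 with all genes above 0, 2 with median-ratio scaling and 2 with upper-quartile scaling (PMAIP1 was added, adjusted p = 0.0380 and 0.0232), 0 at the study's thresholds by either fit and 0 to 2 with 1 library left out. The number called lower at 20 mM, 2 as reported, was 1 with all genes above 0 (BIK, adjusted p = 0.0650), 1 with at least 10 reads in every library (BIK was then not tested), 0 at the study's thresholds on log2(FPKM + 1) but 1 with limma-voom (BIK), where no pseudocount of 1 shrinks the difference, and 1 to 2 with 1 library left out. Between the doses 0 members were called in every alternative (0 to 0 with 1 library left out). The median of all genes moved by under 0.1 with either scaling. The cause of these changes was not tested.

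Libraries with the same replicate number are linked by that number only. Their deviations from the group means correlated above 0.1 in 3 of 9 pairs, and 4 of 9 libraries correlated best with their own number. The highest correlations across doses joined unlike numbers, control replicate 1 with 10 mM replicate 2 (0.52) and control replicate 2 with 10 mM replicate 1 (0.49). What these libraries share was not tested. With a replicate block 1 member was called higher at 10 mM, 0 higher at 20 mM (MCL1, adjusted p = 0.0545 and 0.0588) and 1 and 2 lower.

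Depth limits BIK, which had 8 to 53 reads per library, while BCL2 had 116 to 191 and the other members more. BCL2A1, outside the 10 members, had 5 to 67 reads per library and is limited likewise.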
